A study of Bos taurus with 48 samples.

Results

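Subcutaneous fat of pregnant Norwegian Red heifers reared on a high-protein ration was compared between animals with a history of high and of low dietary energy. The 12 samples were those labelled HiPro and Preg, 6 from heifers on high protein and high energy (HPHE) and 6 from heifers on high protein and low energy (HPLE), out of 48 samples in all. Each group held 3 heifers of a line bred for high milk yield (HMY) and 3 of a line bred for low clinical mastitis (LCM). The rearing diets were fed from 3 months of age until pregnancy was established: high energy meant grass silage offered freely, and low energy meant silage mixed with straw in restricted amounts. Afterwards all heifers, of every diet, received 1 common low-energy pregnancy feed, and the biopsies were taken in month 7 of gestation, at 20 to 24 months of age. The contrast HPHE-HPLE therefore compared heifers with different past diets and the same present feed. Low-energy heifers were mated at a later age, so diet history and age at sampling cannot be told apart. The same heifers had also been sampled at 12 months of age, while on the rearing diets.

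Fat cells of ruminants build fatty acids mainly from acetate, which is activated to acetyl-CoA, carboxylated to malonyl-CoA and joined into palmitate, with NADPH from the pentose phosphate pathway and other sources. The fatty acids are lengthened, desaturated and esterified to triacylglycerol, and cholesterol synthesis draws on the same acetyl-CoA. During an energy deficit, triacylglycerol is broken down and fatty acids enter the mitochondria through the carnitine shuttle.

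Counts assigned to genes ranged from 22430093 to 61027456 per sample (median 42789608.5), against 14815595 to 61027456 in the whole series. The share of alignments that were not unique was 14.8% to 33.1% in HPHE (median 16.9%) and 14.6% to 40% in HPLE (median 22.4%), with the highest value in HPLE heifer 7, and its part in the results was not tested. No 2 heifers of the same diet agreed within sampling noise (30 pairs, lowest chi-square per degree of freedom 53.2). The samples came from separate animals. Gene symbols were available for 1006 genes of the study's tables, most of which the study had selected as changed between energy levels at 12 months, so the genes named below are not a random draw from the transcriptome. Genes without a symbol are given by identifier for at most 2 genes in each direction. Sample-level values are CPM, the reads of a gene scaled to a common library size, after TMM normalisation for RNA composition, and log2 fold changes are HPHE minus HPLE.

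The fat of HPHE heifers had lower expression of fatty acid, triacylglycerol and cholesterol synthesis genes than the fat of HPLE heifers, and higher expression of the fatty acid oxidation genes CPT1A and PDK4. Of 13403 genes tested, 127 differed at a false discovery rate (FDR) under 0.1 in the likelihood ratio test of edgeR, or 0.948%. Of these, 22 (0.164%) were higher and 105 (0.783%) lower in HPHE. The groups of 6 did not overlap in CPM for 99 genes (0.739% of those tested), and 35 of these were among the 127 DEG, 6 higher and 29 lower in HPHE. The median log2 fold change of all genes tested was 0.01. The quasi-likelihood F test of edgeR called 0 genes (lowest FDR 0.1009, shared by CPT1A and ATP10A among others; 1221 genes at an unadjusted p under 0.05, against 904 in the likelihood ratio test), and DESeq2 called 173 genes, 119 of them among the 127. Leaving out a heifer gave 48 to 286 DEG: 48 without HPLE heifer 7, 70 without HPLE heifer 1, 77 without HPLE heifer 9, 79 without HPLE heifer 21, 83 without HPHE heifer 2, 192 without HPLE heifer 17 and 286 without HPLE heifer 13. Of the DEG, 62 had a symbol, 6 higher and 56 lower.

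**Figure D1:**
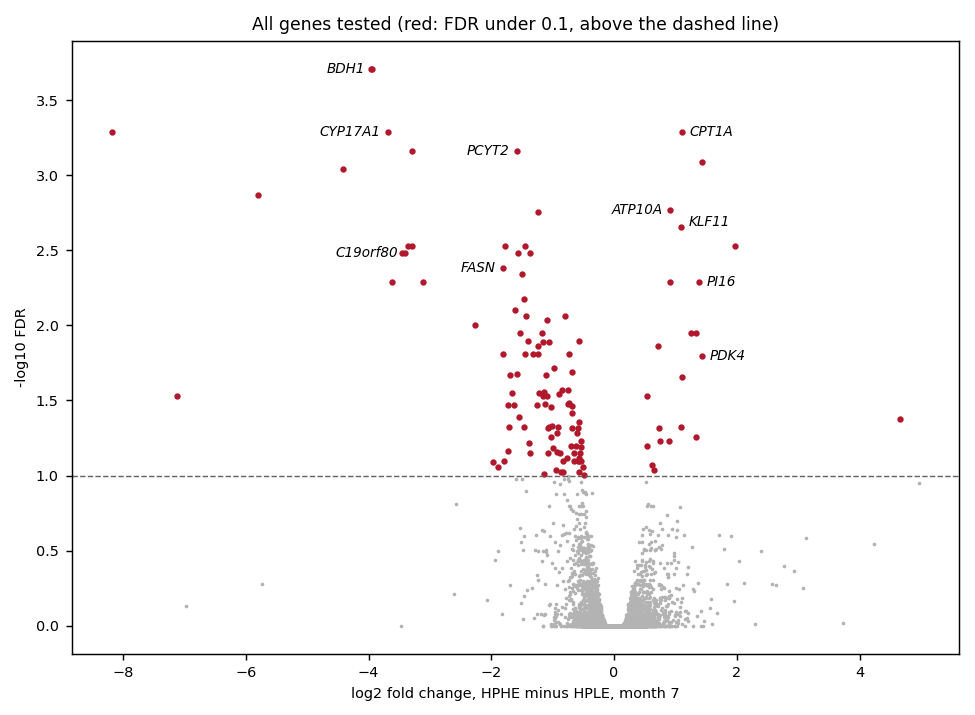
Log2 fold change (x axis, HPHE minus HPLE) against −log10 FDR (y axis) of the 13403 genes tested in month 7 of gestation, 1 point a gene, with the 127 genes at FDR under 0.1 in red above the dashed line. More red points lie on the negative side (105) than on the positive side (22), and BDH1 stands farthest up among genes with a symbol.

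Enzymes that make fatty acids were lower in HPHE. FASN, fatty acid synthase, ranged from 873 through a median of 1394 to 1658 CPM in HPHE and from 1965 through 4796 to 9241 CPM in HPLE. All 6 HPHE heifers lay below all 6 HPLE heifers, with HPLE heifer 13 lowest and HPLE heifer 1 highest within their group. The means were 1308 ± 301 and 4748 ± 2557 CPM (SD, n = 6 each), and the log2 fold change was −1.81 (SE 0.40, edgeR FDR 0.0042). The exact two-sided permutation test on log2(CPM + 0.5) gave p = 0.00216, the smallest that 6 against 6 heifers can give.

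ACSS2, which activates acetate to acetyl-CoA, ranged from 327 through 539 to 689 CPM in HPHE and from 624 through 1784 to 2666 CPM in HPLE. The ranges touched because HPLE heifer 13 lay below the highest HPHE heifer, and the log2 fold change was −1.62 (SE 0.38, edgeR FDR 0.0079). ACACA, the carboxylase that makes malonyl-CoA, ranged from 203 through 370 to 649 CPM in HPHE and from 423 through 1202 to 1759 CPM in HPLE. HPLE heifer 13 again fell inside the HPHE range while the other 5 HPLE heifers lay above it, for a log2 difference of −1.48 (SE 0.34, edgeR FDR 0.0066). SCD, the desaturase that makes oleate, was at 1015 to 2613 CPM in HPHE (median 2053) and 1500 to 10260 CPM in HPLE (median 5865), for a log2 difference of −1.66 (SE 0.43, edgeR FDR 0.028). That call was lost without HPLE heifer 1, 7 or 21 or HPHE heifer 2.

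Citrate leaves the mitochondrion through SLC25A1 and is cleaved by ACLY. SLC25A1 ranged from 78.9 through 85.7 to 115.5 CPM in HPHE and from 118 through 250.1 to 409 CPM in HPLE with no overlap, and its log2 fold change was −1.45 (SE 0.31, edgeR FDR 0.0029). ACLY was at 91.2 to 119 CPM in HPHE (median 106) and 109 to 398 CPM in HPLE (median 190), for a log2 difference of −1.16 (SE 0.28, edgeR FDR 0.013), and was not called without HPLE heifer 1 or 7. MID1IP1, which binds acetyl-CoA carboxylase and promotes its assembly into active polymers, did not overlap between 63.4 to 139 CPM in HPHE and 160 to 604 CPM in HPLE (log2 fold change −1.57, SE 0.34, edgeR FDR 0.0033). ELOVL6, which lengthens palmitate, differed by −1.25 on the log2 scale (SE 0.33, edgeR FDR 0.034) and was not called without HPHE heifer 2 or HPLE heifer 7, 9 or 21.

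The list of de novo fatty acid synthesis held 15 symbols, of which 12 could be matched and tested. Members of this and every later list came only from the study's tables, so the shares over all genes understate their background. Of the 1094 tested genes of those tables, 61 were lower and 6 higher in HPHE, and 65.9% had fold changes below 0. In this list, 8 were lower and 0 higher in HPHE, against 0.783% and 0.164% of all genes. All 12 fold changes were below 0. Their median was −1.37, from −1.81 (FASN) to −0.58 (FADS2, a desaturase of polyunsaturated fatty acids, FDR 0.93). ME1, a source of NADPH, had −0.83 (SE 0.35, FDR 0.51), with overlapping ranges of 16.2 to 51.3 CPM in HPHE and 16.9 to 110.5 CPM in HPLE. With a heifer left out, 5 to 11 of the 12 were called, fewest without HPLE heifer 7 and most without HPLE heifer 13. In the study's own list of fatty acid synthesis and degradation, chosen on low-protein heifers at 12 months and so not independent of diet, 8 of 30 genes were lower and 0 higher (median −0.53), and SLC27A3, a fatty acid transporter, had the highest fold change at 0.25 (FDR 1). Without HPLE heifer 7, 3 of these 30 were called, and without HPLE heifer 13, 14.

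**Figure D2:**
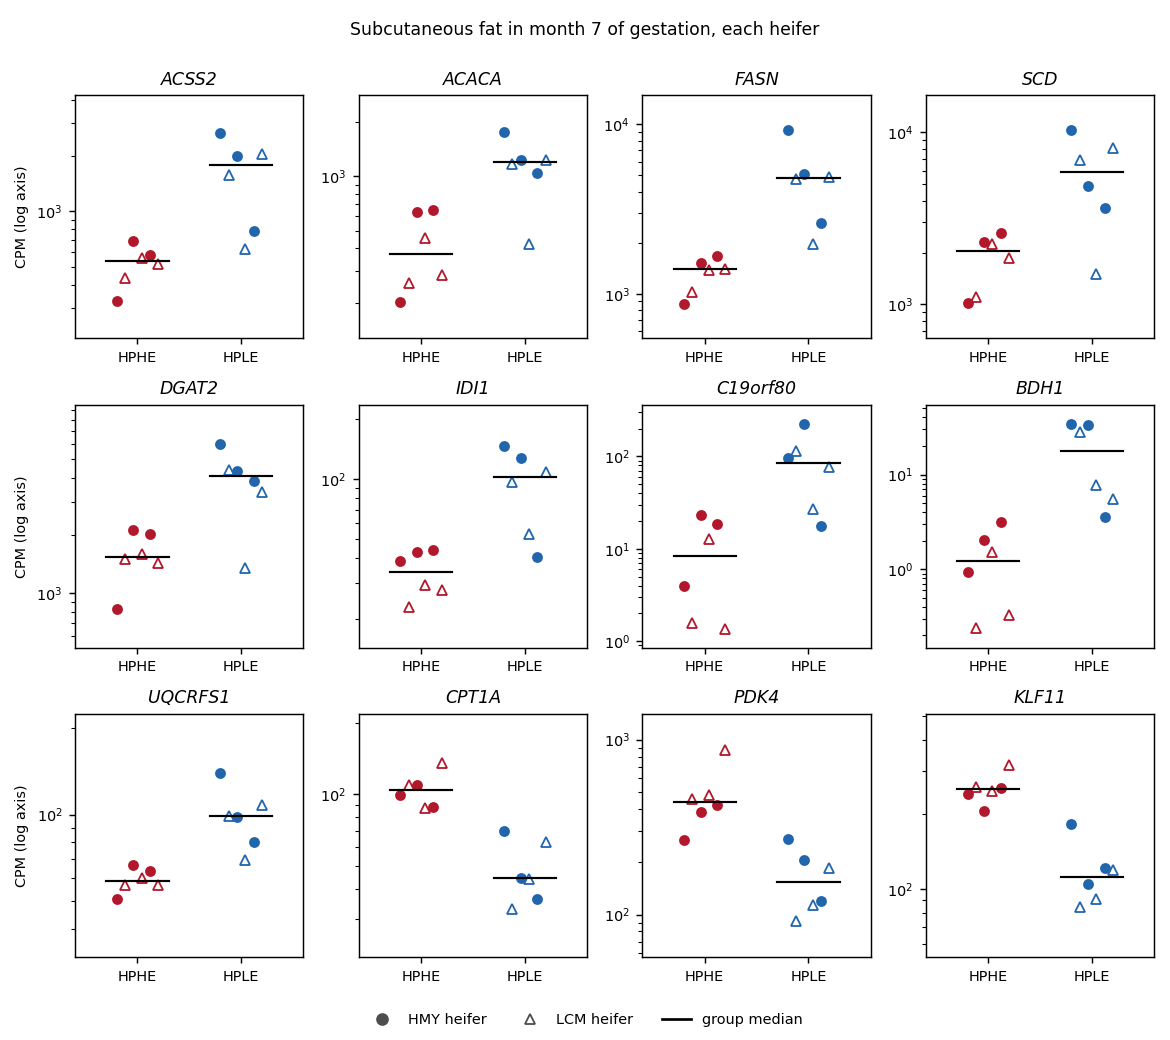
CPM on log axes of 12 genes in each of the 6 HPHE and 6 HPLE heifers in month 7 of gestation, with filled circles for HMY heifers, open triangles for LCM heifers and a bar at the group median. FASN, BDH1, UQCRFS1, CPT1A and KLF11 did not overlap between the diets, whereas in ACACA and ACSS2 the lowest HPLE heifer lay within the HPHE range.

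Genes of triacylglycerol assembly were also lower in HPHE. DGAT2, which adds the last fatty acid to triacylglycerol, ranged from 830 through 1549 to 2141 CPM in HPHE and from 1357 through 4074 to 6000 CPM in HPLE. Of the HPLE heifers, 5 lay above all HPHE heifers and heifer 13 lay among them, for a log2 difference of −1.24 (SE 0.30, edgeR FDR 0.014). AGPAT2, an acyltransferase earlier in the pathway, had −1.40 (SE 0.34, FDR 0.013), and PLIN5, a droplet coat protein, had −1.73 (SE 0.50, FDR 0.069) at no more than 2.73 CPM in any of these heifers. CIDEC, another droplet protein, was at 894 to 1882 CPM in HPHE and 986 to 2186 CPM in HPLE (log2 fold change −0.19, FDR 1). So 3 of the 4 tested members of a 14-symbol list were lower and 0 higher (median −1.32), against 0.783% and 0.164% of all genes, and 0 were called without HPLE heifer 7. PCYT2, of phosphatidylethanolamine synthesis, was also lower without overlap, at 27.3 to 37.5 CPM in HPHE and 43.0 to 178 CPM in HPLE (log2 fold change −1.58, SE 0.31, FDR 0.00069).

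Cholesterol synthesis was represented by 6 tested genes, of which 3 were lower and 0 higher in HPHE (median −0.83), against 0.783% and 0.164% of all genes. IDI1, the isomerase of the isoprenoid units, ranged from 22.9 through 34.3 to 44.0 CPM in HPHE and from 40.9 through 102 to 147 CPM in HPLE, for a log2 difference of −1.50 (SE 0.34, edgeR FDR 0.0046). MVD, an upstream decarboxylase, had −1.09 (SE 0.26, FDR 0.0092), and LSS, which closes the sterol rings, −1.0 (SE 0.29, FDR 0.065). SC5D, a late desaturase, had −0.38 (FDR 0.54). Between 2 and 5 of the 6 were called with a heifer left out.

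BDH1, the mitochondrial dehydrogenase that interconverts acetoacetate and 3-hydroxybutyrate, had the smallest FDR. It ranged from 0.237 through 1.23 to 3.15 CPM in HPHE and from 3.55 through 17.8 to 34.1 CPM in HPLE, without overlap. HPLE heifers 1, 7 and 9 were high (27.8 to 34.1 CPM) and HPLE heifer 17 was nearest to the HPHE group. The log2 fold change was −3.94 (SE 0.71, edgeR FDR 0.00019), and it was called without each heifer in turn.

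C19orf80, which encodes the secreted lipoprotein lipase regulator betatrophin, ranged from 1.35 through 8.30 to 23.3 CPM in HPHE and from 17.7 through 85.9 to 227 CPM in HPLE. Only HPLE heifer 17 lay inside the HPHE range. The log2 fold change was −3.40 (SE 0.75, edgeR FDR 0.0033). It was the only 1 of 8 tested adipokine and secreted-factor genes that was called, against 0.948% of all genes, and the list's median was 0.08. LEP, leptin, overlapped widely at 110.1 to 637 CPM in HPHE (median 409) and 242 to 1199 CPM in HPLE (median 516), and its log2 fold change was −0.57 (SE 0.30, FDR 0.77). NUCB2, the nesfatin precursor, had the highest fold change of that list at 0.44 (FDR 0.98).

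CYP17A1, a steroid hydroxylase, was scarce in HPHE (0.203 to 0.763 CPM) and ran from 0.496 through 2.82 to 19.8 CPM in HPLE, where heifer 1 was highest and heifers 13 and 17 lay within the HPHE range. Its log2 fold change was −3.68 (SE 0.70, edgeR FDR 0.00051). PKD2L1, a cation channel, was at 1.76 to 4.83 CPM in HPHE and 4.35 to 18.9 CPM in HPLE (log2 fold change −1.78, SE 0.38, FDR 0.0029). Of genes without a symbol, ENSBTAG00000045662 was at 0.0646 to 0.184 CPM in HPHE and 0.328 to 6.31 CPM in HPLE (log2 fold change −3.96, SE 0.71, FDR 0.00019).

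Among genes higher in HPHE, CPT1A had the smallest FDR. It encodes the carnitine palmitoyltransferase through which fatty acids enter mitochondria. It ranged from 88.0 through 104.5 to 136 CPM in HPHE and from 33.1 through 44.4 to 70.1 CPM in HPLE. Every HPHE heifer lay above every HPLE heifer, with means of 105.0 ± 17.8 and 48.5 ± 14.8 CPM (SD, n = 6 each). The log2 fold change was 1.11 (SE 0.21, edgeR FDR 0.00051; exact permutation p = 0.00216).

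PDK4, the kinase that shuts pyruvate dehydrogenase when fat is burned, ranged from 265 through 441 to 873 CPM in HPHE and from 91.3 through 153 to 270 CPM in HPLE. HPHE heifer 23 was highest, and the groups overlapped only where HPHE heifer 2 lay just under HPLE heifer 1. The log2 fold change was 1.43 (SE 0.36, edgeR FDR 0.016), and the call was lost without HPLE heifer 7. KLF11, a Krüppel-like transcription factor, was at 206 to 317 CPM in HPHE (median 252) and 84.9 to 183 CPM in HPLE (median 112) with no overlap, for a log2 difference of 1.09 (SE 0.23, FDR 0.0022).

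The other members of the lipolysis and fatty acid oxidation list were not called. Of 8 tested genes, CPT1A and PDK4 were higher and 0 were lower, against 0.164% and 0.783% of all genes. Below 0 were 6 of the 8 fold changes, and the median of all 8 was −0.30. The lowest was DECR1, which handles unsaturated fatty acids in β-oxidation, at −0.71 (SE 0.23, FDR 0.16). Between 1 and 5 of the 8 were called with a heifer left out, the most without HPLE heifer 13.

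The remaining genes with a symbol that were higher in HPHE were ATP10A, PI16 and CA4. ATP10A, a phospholipid flippase, was at 16.6 to 33.6 CPM in HPHE and 10.9 to 15.5 CPM in HPLE without overlap (log2 fold change 0.91, SE 0.19, edgeR FDR 0.0017). PI16, a secreted protein of fibroblast progenitors, was at 217 to 794 CPM in HPHE (median 538) and 151 to 274 CPM in HPLE (median 188), for a log2 difference of 1.39 (SE 0.32, FDR 0.0052). CA4, a membrane-bound carbonic anhydrase of capillaries, had 1.11 (SE 0.28, FDR 0.022) and was not called without HPHE heifer 6 or 23. Without a symbol, ENSBTAG00000015330 differed by 1.43 on the log2 scale (SE 0.28, FDR 0.00082) at 3.73 to 11.4 CPM in HPHE and 2.42 to 4.66 CPM in HPLE. ENSBTAG00000002030 had 1.96 (SE 0.42, FDR 0.0029) at 15.3 to 24.4 and 0.927 to 15.6 CPM.

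**Figure D3:**
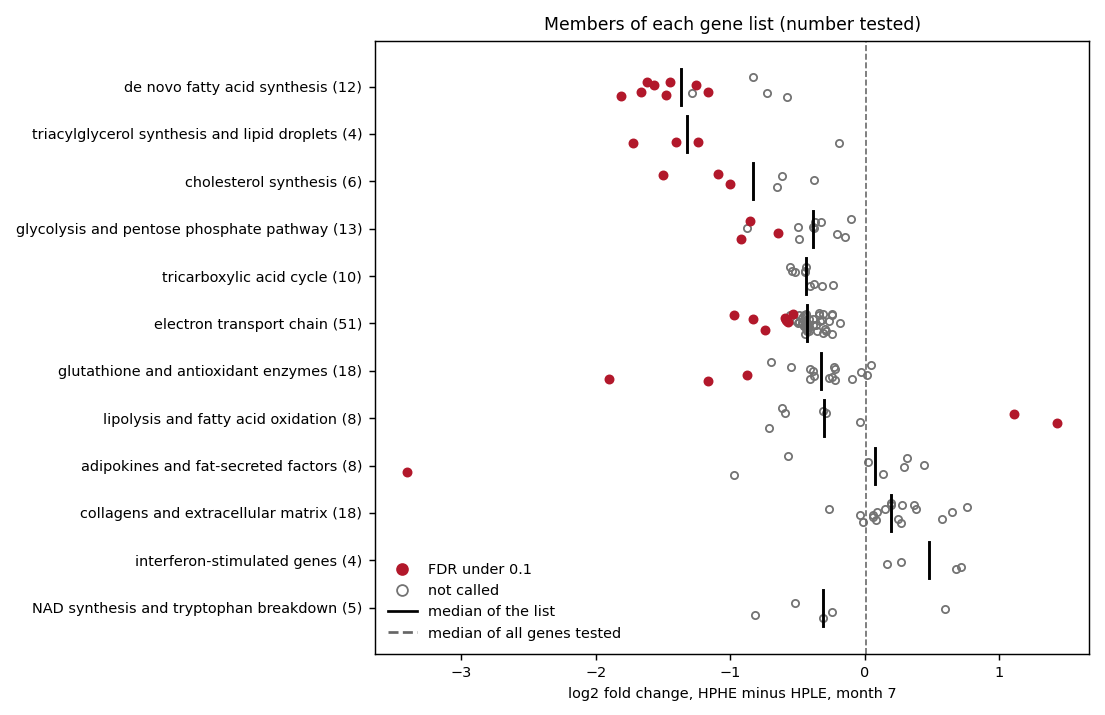
Log2 fold changes (x axis, HPHE minus HPLE in month 7) of the tested members of 12 gene lists, 1 point a gene, red where FDR was under 0.1, with a bar at the median of each list and a dashed line at the median of all genes (0.01). Lipid synthesis lists lie left of the line with medians down to −1.37, and CPT1A and PDK4 are the red points on the right.

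Genes of glucose use and NADPH supply were lower as well. TKT, a transketolase of the pentose phosphate pathway, had a log2 difference of −0.92 (SE 0.25, edgeR FDR 0.048) without overlap, and PGD, a dehydrogenase that yields NADPH, had −0.65 (SE 0.19, FDR 0.080). Of 13 glycolysis and pentose phosphate genes, 3 were lower and 0 were higher, against the same shares of all genes as for fatty acid synthesis. All 13 fold changes were below 0 (median −0.39), the smallest in size being RBKS, a ribokinase, at −0.11. The count fell to 0 without HPLE heifer 1 or 21. In the study's carbohydrate list the same 3 of 14 were lower and 0 higher (median −0.42), with ENO1, enolase, the smallest in size at −0.21.

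Of 51 electron transport chain genes tested, 8 were lower and 0 higher in HPHE, against 0.783% and 0.164% of all genes. All 51 fold changes were below 0, with a median of −0.43. Below 0 were 47.7% of all genes and 65.9% of the 1094 tested genes of the study's tables, from which the list was matched. Of genes called higher in LPHE than LPLE at 12 months, 92.1% were below 0. UQCRFS1, the iron-sulfur protein of complex III, ranged from 51.0 through 58.5 to 66.7 CPM in HPHE and from 69.3 through 98.7 to 140.1 CPM in HPLE, without overlap (log2 fold change −0.74, SE 0.18, edgeR FDR 0.015). The call was lost without HPLE heifer 1. The 2 loci with the symbol CYCS, cytochrome c, had log2 fold changes of −0.97 and −0.83 and may share reads. The others were CYC1 and UQCRB of complex III, COX5A of complex IV, NDUFAB1 of complex I and ATP5G3 of ATP synthase, between −0.53 and −0.59. NDUFS5, of complex I, was nearest to 0 at −0.19. The number called ranged from 0 without HPLE heifer 1 to 16 without HPLE heifer 13, whereas the median stayed between −0.49 and −0.39.

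Of 10 tricarboxylic acid cycle genes, 0 were called in the likelihood ratio or quasi-likelihood test, and all 10 fold changes were below 0 (median −0.44). CS, citrate synthase, had −0.52 (SE 0.17, FDR 0.15), MDH2 −0.54 (SE 0.17, FDR 0.16) and FH, fumarase, −0.23 (FDR 0.88). Without HPLE heifer 13, 5 of the 10 were called. In the study's amino acid list, MDH1, the cytosolic malate dehydrogenase, was the only 1 of 28 called. It had a log2 fold change of −0.69 (SE 0.17, edgeR FDR 0.020) and was not called without HPLE heifer 21. Called lower were 0.783% of all genes and 61 of the 1094 tested genes of the study's tables. The list's extremes were HPD at −1.19 (FDR 0.83) and IDO1 at 0.60 (FDR 0.92), and 8 were called without HPLE heifer 13.

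Of 18 glutathione and antioxidant genes, MGST1, GSTT1 and GSTT3 were lower and 0 higher (median −0.32), against 0.783% and 0.164% of all genes. MGST1, a membrane glutathione transferase, ranged from 268 through 382 to 491 CPM in HPHE and from 343 through 988 to 1147 CPM in HPLE (log2 fold change −1.17, SE 0.28, edgeR FDR 0.011). GSTT1 had −0.88 (SE 0.25, FDR 0.071) and GSTT3 −1.90 (SE 0.57, FDR 0.088). These 2 are related copies whose reads may be split, and DESeq2 did not call GSTT3. CAT, catalase, had the highest fold change of the list at 0.05 (FDR 1). The study's antioxidant list gave the same 3 of 24 lower, and ACTG2, a smooth muscle actin on that list, had its highest fold change of 1.15 (FDR 0.90). With a heifer left out, 1 to 4 of the 18 genes and 1 to 5 of the 24 were called.

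Among 5 genes of NAD synthesis and tryptophan breakdown, 0 were called in the likelihood ratio or quasi-likelihood test. QPRT, which makes a precursor of NAD from quinolinate, had −0.82 (SE 0.26, FDR 0.13) and NADK, NAD kinase, −0.31 (FDR 0.60). Of 3 clock genes, NFIL3, a repressor of the clock output genes, was lower without overlap, at 30.8 to 52.2 CPM in HPHE and 55.9 to 84.1 CPM in HPLE (log2 fold change −0.80, SE 0.19, edgeR FDR 0.0087), and DBP, its counterpart activator, had 0.28 (FDR 1.0). Of all genes, 0.783% were called lower and 0.739% did not overlap. In the stress list of 3 tested genes 0 were called, with CRYAB, a small heat shock protein, at −0.85 (FDR 0.25) and ZBTB16 at 0.60 (FDR 0.89).

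Of 18 collagen and matrix genes, 0 were called in the likelihood ratio or quasi-likelihood test and 15 had fold changes above 0 (median 0.20). ELN, elastin, had 0.76 (SE 0.28, FDR 0.31), COL14A1 0.57 (FDR 0.53) and LOXL1, a lysyl oxidase, −0.27 (FDR 1). Of 4 interferon-stimulated genes 0 were called, with MX2 at 0.72 (FDR 0.96), CXCL10 at 0.68 (FDR 1) and OAS1X at 0.16 (FDR 1).

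The labelled tissue was checked through markers, of which the adipocyte list could be matched only for CIDEC and LEP. Their summed level was 1004 to 2225 CPM in HPHE and 1229 to 2879 CPM in HPLE. Fewer cells of a type and less RNA per cell cannot be told apart in such bulk samples. Markers of other cells overlapped between the diets, with summed levels of 20.2 to 321 CPM in HPHE and 21.1 to 202 CPM in HPLE for 7 skeletal muscle genes, and 239 to 1483 and 187 to 928 CPM for 5 smooth muscle genes. For 4 endothelial genes the sums were 83.9 to 321 and 69.2 to 217 CPM, for 5 fibroblast genes 19520 to 86350 and 22610 to 104500 CPM, and for 5 Schwann cell genes 15.5 to 279 and 12.6 to 87.1 CPM. In these 5 lists 1 gene was called, PI16 of the fibroblast list, against 0.948% of all genes. Nearly all of their fold changes were above 0, where 47.7% of all genes were below. They were above 0 for 5 of 7 skeletal muscle genes (median 0.56), 5 of 5 smooth muscle genes (median 0.83), 4 of 4 endothelial genes (median 0.56), 5 of 5 fibroblast genes (median 0.27) and 5 of 5 Schwann cell genes (median 1.11). Both adipocyte markers were below 0 (median −0.38), as were most lipid synthesis and mitochondrial genes. All these markers were matched only through the study's tables, so their signs are not independent of energy effects at 12 months. Of 340 tested genes called lower in LPHE than LPLE at that age, 287 were above 0 in month 7 at high protein. A cell-type pattern therefore cannot be read from these signs. The only macrophage marker matched, GPNMB, was at 235 to 422 CPM in HPHE and 166.3 to 450 CPM in HPLE (log2 fold change 0.46, SE 0.19, FDR 0.47), with HPLE heifer 13 highest. Of 2 epithelial markers, DSP, desmosomal, had −1.94 (FDR 0.37). No lymphocyte or erythrocyte marker could be matched to an identifier, and the part of cell composition in the results was not tested.

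Fold changes of other markers of these lists were as follows. MYH7, a slow muscle myosin, had 0.99 (FDR 1) and PVALB −0.35 (FDR 1). CNN1 had 0.90 (FDR 0.97) and SMTN 0.12 (FDR 1) among smooth muscle genes. FLT4 had 0.61 (FDR 0.89), LYVE1 0.40 (FDR 0.95) and CCL21 0.93 (FDR 0.95) among endothelial and lymphatic genes. COL3A1 had 0.15 (FDR 1) among fibroblast genes, and SOX10 had 1.11 (FDR 0.65) and ERBB3 0.71 (FDR 0.87) among Schwann cell genes. SOX10 was at the median of the Schwann cell list, whose highest fold change was 2.77 and whose lowest FDR was 0.40. None of these passed the likelihood ratio or the quasi-likelihood test.

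At 12 months of age, while the heifers were still on the rearing diets, HPHE-HPLE gave 16 DEG, 0.12% of 13339 genes tested, 8 in each direction. The HPHE and HPLE heifers were then compared between both ages, as the change of the energy effect, in 1 fit over all 48 samples. The effect differed between month 7 and 12 months for 178 of 13718 genes, or 1.3%, of which 144 (1.05%) had a lower log2 difference in month 7 and 34 a higher one. Pairing the samples of each heifer as a block gave 684 genes (4.99%), 512 lower (3.73%) and 172 higher, and 176 of the 178 were among them. The quasi-likelihood F test called 75 (12 higher, 63 lower) and DESeq2 418. Scaling by library size only gave 126 genes with 44 higher and 82 lower, and moved the median of all genes from 0.03 to 0.13. Leaving out a heifer gave 33 to 334 genes in the unblocked fit, with 33 without HPLE heifer 1, 46 without HPHE heifer 2, 48 without HPLE heifer 9, 73 without HPHE heifer 19, 85 without HPHE heifer 23, 105 without HPHE heifer 6, 292 without HPLE heifer 13, 314 without HPHE heifer 15 and 334 without HPLE heifer 7.

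The energy effect on lipid synthesis genes was more negative in month 7 than at 12 months. At 12 months, 11 of the 12 de novo fatty acid synthesis genes had log2 fold changes above 0, with a median of 0.71 and 0 called, and in month 7 all 12 were below 0. The change was called for 10 of the 12, and for 11 with the heifer block. Both counts include ME1, which the study had called between HPHE and HPLE on these 12-month samples. For values at both ages the CPM were normalised over all 48 samples, so those of month 7 differ slightly from the ones above, which were normalised over the 24 month 7 samples. FASN went from 8726 to 14130 CPM at 12 months to 855 to 1615 CPM in month 7 in HPHE, a fall in 6 of 6 heifers by log2 values between −4.05 and −2.69. In HPLE it went from 5160 to 17680 CPM to 1931 to 8859 CPM and fell in 5 of 6 heifers, with log2 changes between −2.04 and 0.14. The difference of effects was −2.16 (SE 0.50, edgeR FDR 0.0085; 0.00093 with the heifer block).

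SCD fell in 6 of 6 HPHE heifers (log2 change −4.40 to −1.82) and 4 of 6 HPLE heifers (−2.26 to 0.76), a difference of effects of −2.67 (SE 0.57, edgeR FDR 0.0048). ACLY fell in 6 of 6 HPHE heifers (−3.27 to −1.68) and 4 of 6 HPLE heifers (−1.22 to 0.95), a difference of −2.38 (SE 0.54, FDR 0.0062). C19orf80 fell in 6 of 6 HPHE heifers by log2 values between −7.30 and −4.42, and in HPLE between −2.13 and 1.84. BDH1 fell in 6 of 6 HPHE heifers (−6.83 to −5.02) and 5 of 6 HPLE heifers (−3.64 to 1.03).

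For CPT1A, PDK4 and KLF11 the effect was more positive in month 7. CPT1A rose in 6 of 6 HPHE heifers, from 39.99 to 59.8 CPM at 12 months to 86.0 to 132 CPM in month 7, and fell in 5 of 6 HPLE heifers, from 44.8 to 69.6 CPM to 32.0 to 67.2 CPM. The difference of effects was 1.35 (SE 0.27, edgeR FDR 0.0028). PDK4 rose in 6 of 6 HPHE heifers (log2 change 1.22 to 2.37) and fell in 5 of 6 HPLE heifers (−1.18 to 0.52), a difference of 2.26 (SE 0.50, FDR 0.0056). KLF11 rose in 6 of 6 HPHE heifers (1.37 to 2.05) and in 3 of 6 HPLE heifers (−0.59 to 0.63), a difference of 1.74 (SE 0.31, FDR 0.00035). The study had called KLF11 on the 12-month samples that enter this difference, so its test is not independent of that choice. CPT1A, PDK4 and KLF11, like FASN, SCD, ACLY, C19orf80 and BDH1, were also DEG of month 7, and those samples enter the difference too. Their tests are therefore not independent of the month 7 calls. Of the 127 month 7 DEG, 71 had a called change, against 1.3% of all genes.

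**Figure D4:**
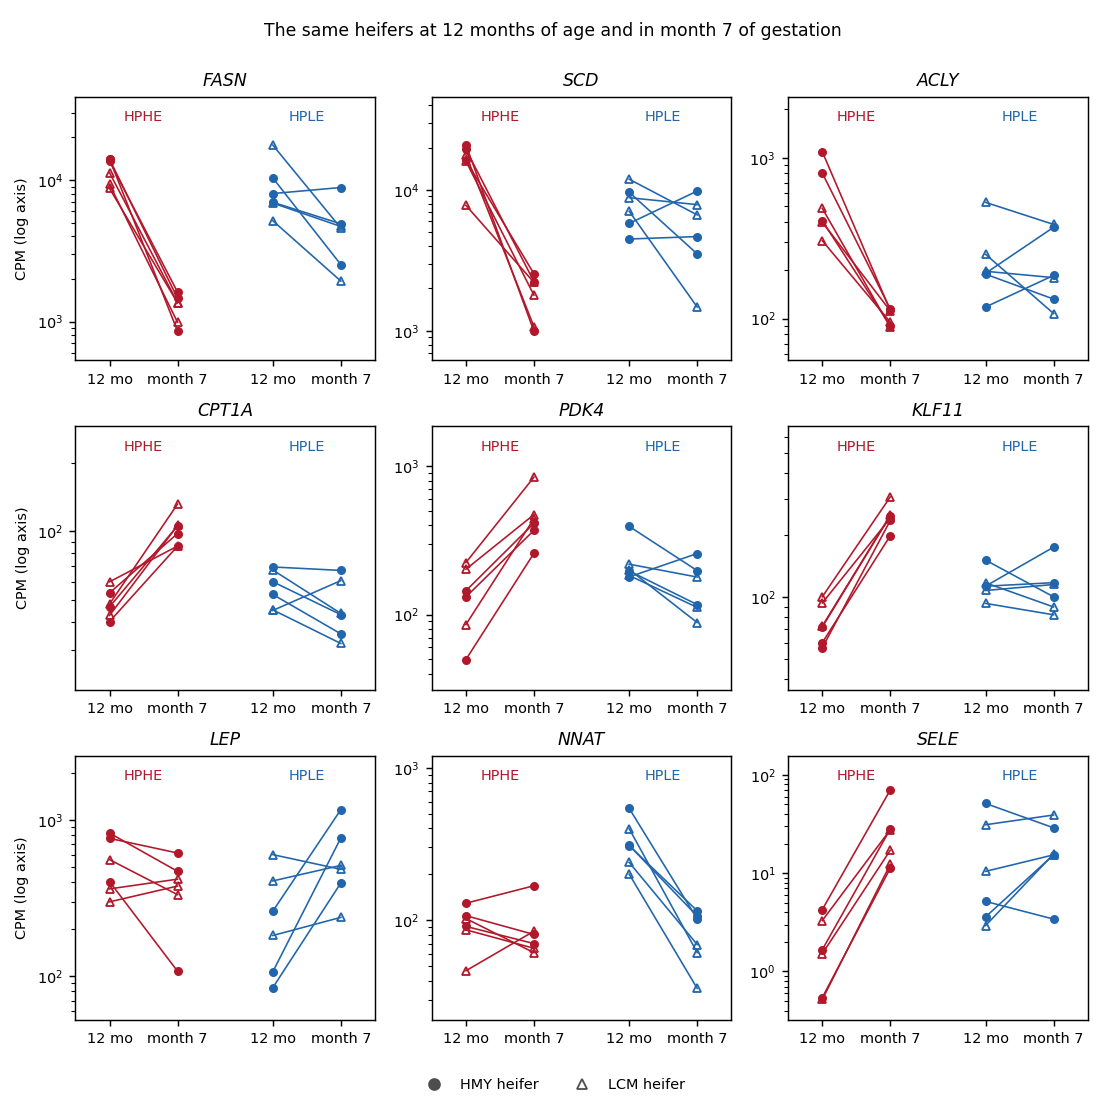
CPM on log axes of 9 genes at 12 months of age and in month 7 of gestation, with a line for each of the 6 HPHE (red) and 6 HPLE (blue) heifers. FASN, SCD and ACLY fell in all 6 HPHE heifers and in 4 or 5 of the 6 HPLE heifers, and CPT1A, PDK4 and KLF11 rose in all 6 HPHE heifers.

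Other lists differed between the ages as follows, each given as called with a lower effect in month 7, first without and then with the heifer block. The shares of all genes were 1.05% and 3.73%, which understate the background, as list members came only from the 1101 genes of the study's tables. Of the genes called in either direction, 138 of 178 without and 397 of 684 with the block were in those tables. The same limit applies to the fatty acid list above. Electron transport gave 17 and 36 of 51, with a 12-month median of 0.26. Glycolysis and pentose phosphate genes gave 6 and 11 of 13, glutathione and antioxidant genes 7 and 12 of 18, tricarboxylic acid cycle genes 3 and 8 of 10, cholesterol synthesis genes 4 and 5 of 6, and triacylglycerol genes 3 and 3 of 4. For these 6 lists 0 genes had a higher effect in month 7 in either fit. Collagen and matrix genes gave 0 and 1 of 18, the latter being XYLT1, which the study had called between HPHE and HPLE at 12 months.

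The genes that the study had called between HPHE and HPLE at 12 months were chosen on these same heifers, in other samples. Of 24 such genes, 23 were tested in month 7: KLF11 was higher, C19orf80 and 2 genes without a symbol were lower, and the others were not called. Of all genes, 0.948% were called. KLF11 and C19orf80 had the opposite sign at 12 months, with log2 fold changes of −0.60 and 1.48. The 2 genes without a symbol were below 0 at both ages. NNAT, neuronatin, had a 12-month log2 fold change of −1.84 (edgeR FDR 0.0030) and one of 0.16 in month 7 (FDR 1), and it fell in 6 of 6 HPLE heifers from 201 to 541 CPM to 35.7 to 115 CPM. SELE, an endothelial adhesion molecule, had −3.12 (FDR 0.015) and then 0.51 (FDR 1), and it rose in 6 of 6 HPHE heifers from 0.518 to 4.26 CPM to 11.2 to 70.4 CPM. SERPINA5, a protease inhibitor, had 2.30 (FDR 0.00060) and then 0.27 (FDR 1), and S100B, a calcium-binding protein, 1.19 (FDR 0.0030) and then −0.06 (FDR 1). XYLT1, which starts glycosaminoglycan chains, had 1.11 (FDR 0.060) and then −0.01 (FDR 1), and GSTM1 had 0.94 and then 0.01 (FDR 1). The 12-month samples that chose these genes are also part of the change of the effect, so no count of that change is given for them as a set. Some do enter other counts of that change, such as ME1 in the fatty acid list, XYLT1 in the matrix list and several among the reported genes below.

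Heifers on low protein had the same energy contrast and shared no sample with these. LPHE-LPLE in month 7 gave 141 DEG, 1.05% of the genes tested, of which 99 (0.739%) were lower in LPHE. There were 50 DEG in common, 39.4% of the 127 and 35.5% of the 141, and all 50 had the same direction. FASN had a log2 fold change of −1.47 at low protein (SE 0.41, edgeR FDR 0.061), ACLY −1.36 (SE 0.28, FDR 0.0027), KLF11 1.13 (SE 0.23, FDR 0.0027) and BDH1 −3.48 (SE 0.73, FDR 0.0027). SCD had −1.29 (SE 0.44, FDR 0.19) and PDK4 1.14 (SE 0.36, FDR 0.12) at low protein. The test of the difference between both protein levels called 1 gene (0.00746%), ENSBTAG00000045659, which was at 0 in most HPHE heifers (highest 0.106 CPM) and at 0 to 38.4 CPM in HPLE. The quasi-likelihood F test of this difference called 0 (115 genes at an unadjusted p under 0.05, 107 in the likelihood ratio test) and DESeq2 2. The smaller fold changes of PI16 (0.22, SE 0.31, FDR 0.90) and ATP10A (0.04, SE 0.19, FDR 0.98) at low protein went with differences of 1.17 (SE 0.44, FDR 1) and 0.87 (FDR 1), which did not pass.

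**Figure D5:**
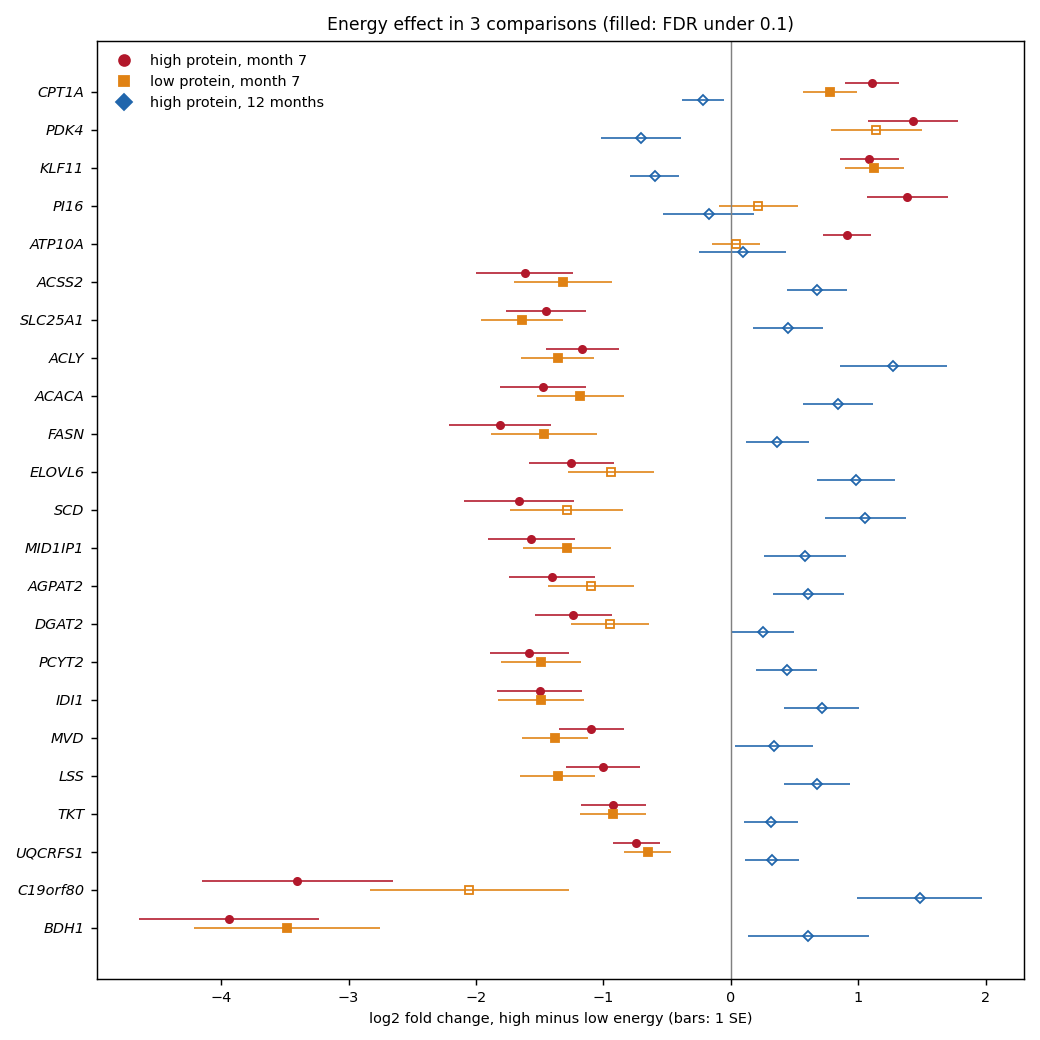
Log2 fold change with 1 SE (x axis, high minus low energy) of 23 genes at high protein in month 7 (circles), low protein in month 7 (squares) and high protein at 12 months (diamonds), filled where FDR was under 0.1. The lipid synthesis genes are negative in both month 7 comparisons and positive at 12 months, where none of the 23 is filled. The study called KLF11 and C19orf80 at 12 months, where the edgeR FDR here was 0.33 and 0.34.

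Genes called at 12 months between LPHE and LPLE, in other heifers, were also set beside the month 7 values, a comparison chosen after the values were seen. Of 582 tested genes that had been higher in LPHE, 536 (92.1%) had month 7 log2 fold changes below 0 at high protein (median −0.33), with 51 called lower and 0 higher. Of 340 that had been lower in LPHE, 53 (15.6%) were below 0 (median 0.19), with 7 called higher and 0 lower. Over all genes, 47.7% were below 0, 0.783% were called lower and 0.164% called higher.

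The energy effect was also compared between the breeding lines, with 3 heifers in each cell. It differed for 41 genes, or 0.306%, of which 33 had a higher effect in HMY than in LCM heifers, and 3 of the 41 had a symbol. The quasi-likelihood F test called 0 (735 genes at an unadjusted p under 0.05, 701 in the likelihood ratio test) and DESeq2 35. Leaving out a heifer gave 2 to 106, with 2 without HPHE heifer 2, 6 without HPLE heifer 13, 13 without HPHE heifer 6 or 23, 16 without HPLE heifer 17, 18 without HPLE heifer 1, 63 without HPLE heifer 21, 71 without HPLE heifer 7 and 106 without HPHE heifer 11. Among the genes reported here the difference was called for KRT19. KRT19, an epithelial keratin, was at 1.33 to 11.1 CPM in HPHE and 1.90 to 29.9 CPM in HPLE, with LCM heifer 7 of HPLE highest, a difference of 4.21 (SE 1.01, edgeR FDR 0.029).

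For the lipid genes the difference between the lines was not called. FASN had log2 fold changes of −2.07 in HMY (SE 0.48, edgeR FDR 0.027) and −1.60 in LCM (SE 0.47, FDR 0.13), a difference of −0.47 (SE 0.65, FDR 1.0). CPT1A had 0.98 (SE 0.29) and 1.25 (SE 0.29), a difference of −0.27 (SE 0.41, FDR 1.0). PDK4 had 0.85 in HMY (SE 0.38, FDR 0.71) and 2.22 in LCM (SE 0.40, FDR 0.00016), and this difference of −1.37 did not pass (FDR 0.62).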

How the data were processed

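Subcutaneous fat was biopsied from 24 heifers of 4 diets at 12 months of age and in month 7 of gestation (48 samples). Per the labels and the study's methods, the authors trimmed reads with Cutadapt 1.3, aligned them to the cattle genome build UMD3.1 with TopHat 2.0.12 and counted reads per gene with HTSeq, and the submitters' notes also list SAMtools 1.19. The deposited files hold raw counts of 24616 gene rows and 5 summary rows, which were dropped (median gene share of all rows 56.5% in the 12 samples). Raw counts set the precision: with at least 22430093 counts a sample, counting error was small beside the differences among heifers on 1 diet, over genes as a whole. It can be large for scarce genes, such as CYP17A1 and ENSBTAG00000045662 in HPHE heifers.

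Tested were genes that reached 2 CPM in 3 or more samples, with edgeR 4.0.16 in R 4.3.3 (TMM factors, tagwise dispersions, likelihood ratio test, Benjamini-Hochberg FDR under 0.1) on the 24 month 7 samples, with diet and breeding line as terms, as in the study's methods. The change from 12 months was fitted on all 48 samples. Standard errors came from dividing each log2 effect by the root of its likelihood ratio. Exact permutation tests used all 924 splits of 6 against 6 heifers on log2(CPM + 0.5). The groups compared within month 7 were different animals. Both samples of a heifer deviated together from their group means (r 0.119 to 0.446 over 12 heifers, all above 0.1, 13135 genes), so the heifer block was also fitted. Alternatives were the quasi-likelihood F test, DESeq2 1.42.0, other scalings and filters, no breeding line, FDR 0.05, other sample sets, another dispersion estimate and each heifer left out. The scripts were tested on simulated data.

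Named were the 12 DEG with the smallest p in each direction, the DEG or else the 2 members of smallest p and both extremes of each gene list, 14 genes set by name, and the 5 genes of smallest p of each difference of effects. Symbols came only from the study's tables (1101 identifiers, 1094 tested in month 7). Genes without a symbol were otherwise left unnamed, and some genes that the rule named are not reported here. The samples, gene lists and named genes were chosen with earlier results of these data known. The sequencing lane of each sample was not given in the sources used here.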

Additional observations from a re-analysis of the deposited data

Results flagged for a closer look

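In 14 of 184 groups of 6 heifers, the highest or lowest heifer stood apart from the others beyond Dixon's critical value of 0.625, where chance flags about 1 group in 20. HPLE heifer 13 accounted for 5 of them. It was lowest for ACACA (423 CPM, next 1051), MDH1 (85.1 CPM, next 132), CS (95.6 CPM, next 138) and DECR1 (46.9 CPM, next 83.1), and highest for GPNMB (450 CPM, next 239). Without this heifer HPHE-HPLE gave 286 DEG, against 127 with it. HPHE heifer 2 was lowest for LEP (110.1 CPM, next 343) and highest for SMTN (134.9 CPM, next 96.3) and NNAT (172 CPM, next 86.7), and without it 83 DEG were called. HPLE heifer 17 was highest for IDO1 (40.4 CPM, next 19.6) and MYH7 (16.2 CPM, next 0.834). The others were single heifers of HPHE: heifer 6 for TKT (346 CPM, lowest), heifer 11 for DBP (86.6 CPM, lowest), heifer 15 for OAS1X (8.34 CPM, lowest) and heifer 19 for ENSBTAG00000045659 (0.106 CPM, highest).

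Among the genes reported here, 44 had a log2 difference of effects between month 7 and 12 months at high protein that passed the edgeR likelihood ratio test at an FDR under 0.1. In lipid synthesis these were ACSS2 (−2.27), SLC25A1 (−1.88), ACLY (−2.38), ACACA (−2.23), MID1IP1 (−2.13), FASN (−2.16), ELOVL6 (−2.16), SCD (−2.67), ME1 (−2.01), AGPAT2 (−2.01), DGAT2 (−1.50), PLIN5 (−3.35), PCYT2 (−2.01), IDI1 (−2.19), MVD (−1.38) and LSS (−1.66). In energy metabolism they were TKT (−1.23), PGD (−1.35), MDH1 (−1.02), MDH2 (−0.96), UQCRFS1 (−1.06), CYC1 (−0.95), both CYCS loci (−1.73 and −1.31), UQCRB (−0.80), ATP5G3 (−0.82) and QPRT (−1.76). Others with a lower effect in month 7 were BDH1 (−4.16), C19orf80 (−4.47), PKD2L1 (−2.58), NFIL3 (−1.34), MGST1 (−1.35), GSTT1 (−1.37), CRYAB (−1.69), SERPINA5 (−1.96) and S100B (−1.23). A higher effect in month 7 was called for CPT1A (1.35), KLF11 (1.74), PDK4 (2.26), GPNMB (2.07), SELE (3.48), NNAT (1.99), ENSBTAG00000015330 (2.77) and ENSBTAG00000002030 (2.38). With both samples of a heifer paired as a block, all 44 were called and 15 more passed, 59 in all. These 15 had a lower blocked effect in month 7 for LEP (−1.80), GSTT3 (−2.30), GSTM1 (−0.95), KRT19 (−2.89), CS (−0.82), NADK (−0.64), COX5A (−0.82), NDUFAB1 (−0.80), HPD (−1.98), ENO1 (−0.61), PVALB (−1.68), XYLT1 (−1.12) and ENSBTAG00000045662 (−2.14), and a higher one for PI16 (1.34) and CCL21 (2.82). KLF11, C19orf80, NNAT, SELE, SERPINA5, S100B and the other genes that the study had called at 12 months were chosen on samples that are part of this difference. Many of the rest were named as month 7 DEG, whose samples also enter it, and the naming rule also took genes of smallest p of the difference itself. The counts of 44 and 59 thus follow in part from how the genes were named. Over all genes the change was called for 1.3% without and 4.99% with the block.

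The difference between high and low protein was called for ENSBTAG00000045659 (−11.7), a fitted value that depends on the prior count because most HPHE heifers had 0 counts. The difference between HMY and LCM heifers was called for KRT19 (4.21) among the genes reported here.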

How the results depend on the processing

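The count of DEG between HPHE and HPLE in month 7 was 127, and it was 0 with the quasi-likelihood F test, 77 when all 48 samples shared the dispersions and 48 to 286 with a heifer left out. Without HPLE heifers 9 and 13, a choice made after seeing the data, it was 253. It stayed within 1.5 times under DESeq2, library size only, RLE size factors, both filters, no breeding line, FDR 0.05, the 12 samples alone and the other dispersion estimate. The difference between protein levels, 1 gene, was 0 with the quasi-likelihood F test and with at least 10 counts in every sample, 2 with DESeq2, 4 with no filter on low counts and 0 to 4 with a heifer left out. The difference between month 7 and 12 months, 178 genes, was 89 at FDR 0.05, 75 with the quasi-likelihood F test, 418 with DESeq2, 684 with the replicate block of heifers, 286 in the 24 high-protein samples alone and 33 to 334 with a heifer left out. The difference between HMY and LCM heifers, 41 genes, was 26 at FDR 0.05, 0 with the quasi-likelihood F test and 2 to 106 with a heifer left out. The cause of these moves was not tested.

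Of 92 named genes, 44 were called in month 7. All 44 kept their direction under the alternatives run, 22 were called without each heifer in turn, and none was called by the quasi-likelihood F test. Of the 48 not called, 10 turned direction. XYLT1 was at 0.016 without the breeding line, at 0.018 in all 48 samples and at −0.23 to 0.21 with a heifer left out. With a heifer left out, GSTM1 was at −0.11 to 0.17, SELE −0.028 to 0.80, S100B −0.21 to 0.085, KRT19 −1.02 to 0.17, DSP −2.36 to 0.11, CAT −0.029 to 0.10 and COL3A1 −0.12 to 0.36. Without HPLE heifers 9 and 13, DSP was at 1.13, FADS2 0.14, OAS1X −0.14 and S100B 0.066. PLIN5, BDH1 and CYP17A1 were under 4 CPM in every HPHE heifer, and whether depth limited any call was not tested.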
